A study of Mus musculus with 2 samples.

Results

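The enzymes that make prostaglandins and leukotrienes were represented by 8 genes, Pla2g4a, Ptgs1, Ptgs2, Ptges, Alox5, Alox5ap, Lta4h and Ltc4s, taken from a list of gene names, out of 10541 genes that had a value. RNA from mouse macrophages exposed for 4 h to interleukin 10 (IL-10, 100 ng/ml) was compared with RNA from macrophages without it, and each group had a single library. Both libraries came from male C57BL/6JJcl mice whose peritoneal cells were collected 3 days after an injection of thioglycolate, an irritant broth that draws macrophages into the peritoneum, and were left to adhere for 24 h. Macrophages respond to this cytokine by limiting their inflammatory output. The protocol text of the untreated sample repeats the IL-10 treatment, so the groups rest on the sample titles. Neither the age of the mice nor their number per library is given in the labels.

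Prostaglandins and leukotrienes are short-lived lipid signals made from arachidonic acid. A phospholipase frees arachidonic acid from membranes. Cyclooxygenases then turn it into prostaglandin H2, from which terminal synthases make the individual prostaglandins, while 5-lipoxygenase, helped by a membrane protein that presents the fatty acid, turns it into leukotriene A4, the parent of leukotrienes B4 and C4. Macrophages elicited in the peritoneum are a classical source of both families.

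A value here is a number of reads that the aligner placed across an exon junction. A gene's value is the sum over the introns annotated to that gene alone, and ratios are IL-10 over untreated after division by each library's total of 3837522 (IL-10) and 3866087 (untreated) named reads. The 95% intervals cover counting error only. With 1 library per group no ratio has a replicate check, no p-value is given, and each ratio compares these libraries, not the conditions. A gene was called if its interval excluded 1, its reads summed to 20 or more, and its ratio was 2 or higher or else 0.5 or lower.

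The reads of the main members were counted at exon junctions such as those below, the most-read coding junction of each gene. They are shown because such junctions are what was measured. Each line gives the last 15 bases of the upstream exon in lower case and the first 15 bases of the downstream exon in capitals, 5′ to 3′, from the GENCODE M21 transcripts.
Pla2g4a: ctgaacaacattgatGTGATAAAGGATGCC
Ptgs1: ccaactgtaccatccCTGAGATCTGGACCT
Ptgs2: gactcatactcatagGAGAGACTATCAAGA
Ptges: ggagcgctgcctcagAGCCCACCGCAACGA
Alox5ap: gcgtggtccagaatgCGTTCTTTGCCCACA
Lta4h: ttcagtcagtgccagGCCATCCACTGCAGG

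On the mm9 build, the introns removed at these junctions lay at chr1:151677323-151687747 on the minus strand for Pla2g4a (17 reads with IL-10, 5 untreated), chr2:36092844-36093170 on the plus strand for Ptgs1 (43 and 29), and chr1:151951246-151951412 on the plus strand for Ptgs2 (7 and 1). The intron of Ptges lay at chr2:30748347-30756386 on the minus strand (20 with IL-10 and 14 untreated), that of Alox5ap at chr5:150076759-150083956 on the plus strand (467 and 493), and that of Lta4h at chr10:92924176-92927189 on the plus strand (82 and 117). Each is an intron between coding exons.

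None of the 8 genes was called. In such bulk samples fewer cells of a type and less RNA per cell cannot be told apart. Of 8365 genes with at least 20 reads, 147 (1.76%) were called higher and 125 (1.49%) lower in the IL-10 library. Summed reads of each branch mostly reflected 1 gene. Ptgs1, Ptgs2 and Ptges together had 189 reads with IL-10 and 109 untreated (ratio 1.75, 1.37 to 2.23), of which Ptgs1 gave most. Alox5, Alox5ap, Lta4h and Ltc4s together had 1891 reads with IL-10 and 2143 untreated (0.889, 0.835 to 0.946), of which Alox5ap gave most, while Ltc4s had a ratio of 1.22. Of the 6 members with at least 20 reads, 2 had an interval above 1 and 2 an interval below 1, against 12.9% and 13.0% of all genes. Their median log2 ratio was 0.38, beside -0.00 over all 8365 genes.

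**Figure D1:**
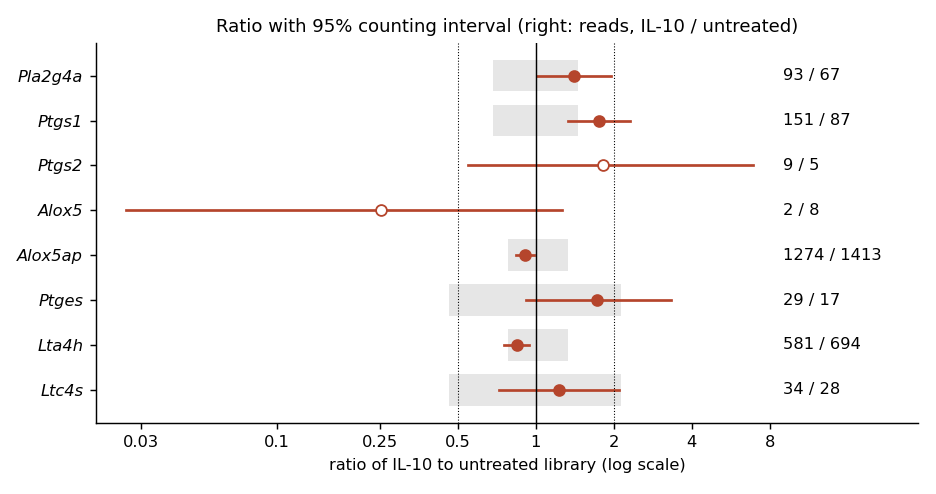
Ratio of the IL-10 to the untreated library for each enzyme gene (log axis) with its 95% counting interval; open circles mark genes with fewer than 20 reads. Grey bars span the 5th to 95th percentile of genes in the same range of read numbers, dotted lines mark 0.5 and 2, and Ptgs1 (1.75) lies beyond its bar.

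Levels of different genes were compared as reads per 1000000 named reads, divided by the number of introns of the reference transcript, since each intron offers a read about the same room. On this scale Alox5ap stood far above the rest, at 83.0 (78.5 to 87.7, exact Poisson interval) with IL-10 and 91.4 (86.7 to 96.3) untreated. Lta4h followed with 8.32 (7.66 to 9.03) with IL-10 and 9.89 (9.16 to 10.7) untreated. Ptgs1 (3.93 with IL-10, 2.25 untreated), Ptges (3.65 and 2.20), Ltc4s (2.15 and 1.81) and Pla2g4a (1.43 and 1.02) came next, in this order in both libraries. Within each library, neighbours among these 4 genes had overlapping intervals. Overlap of separate intervals does not settle whether 2 neighbours differed, and their levels were not compared directly. With IL-10 the interval of Ptgs1 (3.33 to 4.61) lay above those of Ltc4s (1.48 to 3.02) and Pla2g4a (1.15 to 1.75), and that of Ptges (2.42 to 5.27) lay above that of Pla2g4a. Untreated, the interval of Ptgs1 (1.80 to 2.78) lay above that of Pla2g4a (0.790 to 1.29). These intervals cover counting error alone and were not widened for the spread among introns. Introns 2 to 4 held 72.2% of the reads of Ptgs1 with IL-10 and 79.3% untreated. With IL-10 they had 36.3 reads per intron, against 6.33 over introns 5 to 10, so the place of Ptgs1 rests mainly on introns 2 to 4. Ptgs2 (0.261 with IL-10, 0.144 untreated) and Alox5 (0.0401 and 0.159) were at the bottom. Their order differed between the libraries, and their intervals overlapped in both.

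**Figure D2:**
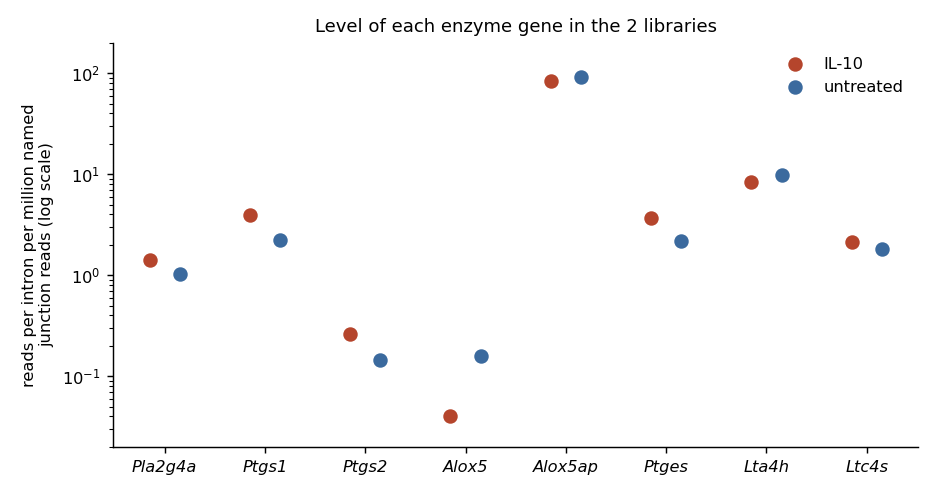
Level of each enzyme gene in reads per 1000000 named junction reads and per intron (log axis), with 1 point for the IL-10 library on the left and 1 for the untreated library on the right. Alox5ap lies between 83.0 and 91.4, while Alox5 and Ptgs2 lie below 0.3.

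Pla2g4a encodes cytosolic phospholipase A2 alpha, the enzyme that frees arachidonic acid when calcium rises. With IL-10 it had 93 reads, and untreated it had 67, a ratio of 1.40 (1.01 to 1.94). The reads were spread unevenly: 16 of the 17 introns of the reference transcript had any, and of 12 introns with at least 5 reads, 7 had a ratio above 1 with IL-10, among them 1 with 5 reads in each library, and 5 a ratio below 1. The second intron had 11 reads with IL-10 and 0 untreated, whereas the ninth had 0 with IL-10 and 9 untreated. The spread of the split between libraries among the introns, as chi-square over its degrees of freedom, was 3.44, a value reached by 5.52% of 6491 genes with at least 4 such introns (median 1.30, where 1 is counting error alone). Widened by this spread, a step added after the values were seen, the interval of Pla2g4a ran from 0.781 to 2.50. Among 3493 genes with 100 to 500 reads, 231 (6.61%) had a ratio at least as high.

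Ptgs1 encodes cyclooxygenase 1, the constitutive form of the enzyme that commits arachidonic acid to prostaglandins. It had 151 reads with IL-10 and 87 untreated, a ratio of 1.75 (1.33 to 2.30). All 10 introns of its reference transcript had at least 5 reads over both libraries, and 9 of them were higher with IL-10. The exception was the seventh, with 4 reads with IL-10 and 7 untreated. The spread among introns was 1.42, close to the median of all genes, and the widened interval was 1.28 to 2.39. Of the members with at least 4 introns of 5 or more reads, Ptgs1 was the only one whose widened interval excluded 1. Among 3493 genes with 100 to 500 reads, 63 (1.80%) had a ratio at least as high. The ratio stayed under 2, so the gene was not called.

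The reads of Ptgs1 were concentrated on introns 2 to 4, while its first intron had 4 reads with IL-10 and 2 untreated. Introns 2 to 4 had 23, 43 and 43 reads with IL-10, against 15, 29 and 25 untreated. Introns 5 to 10 had between 4 and 9 reads each with IL-10, against 0 to 7 untreated. Per intron this was 36.3 against 6.33 within the IL-10 library, and 23.0 against 2.67 within the untreated library, so the same profile appeared in both. Introns 2 to 4 held 72.2% of the gene's reads with IL-10 and 79.3% untreated. The ratio was 1.59 (1.17 to 2.18) over introns 2 to 4 and 2.39 (1.30 to 4.60) over introns 5 to 10, with overlapping intervals. These blocks were chosen after their values were seen. The annotation holds a short noncoding transcript, Ptgs1-203, that has introns 2 to 4 and none of introns 5 to 10. Junction reads do not tell which transcript they came from.

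**Figure D3:**
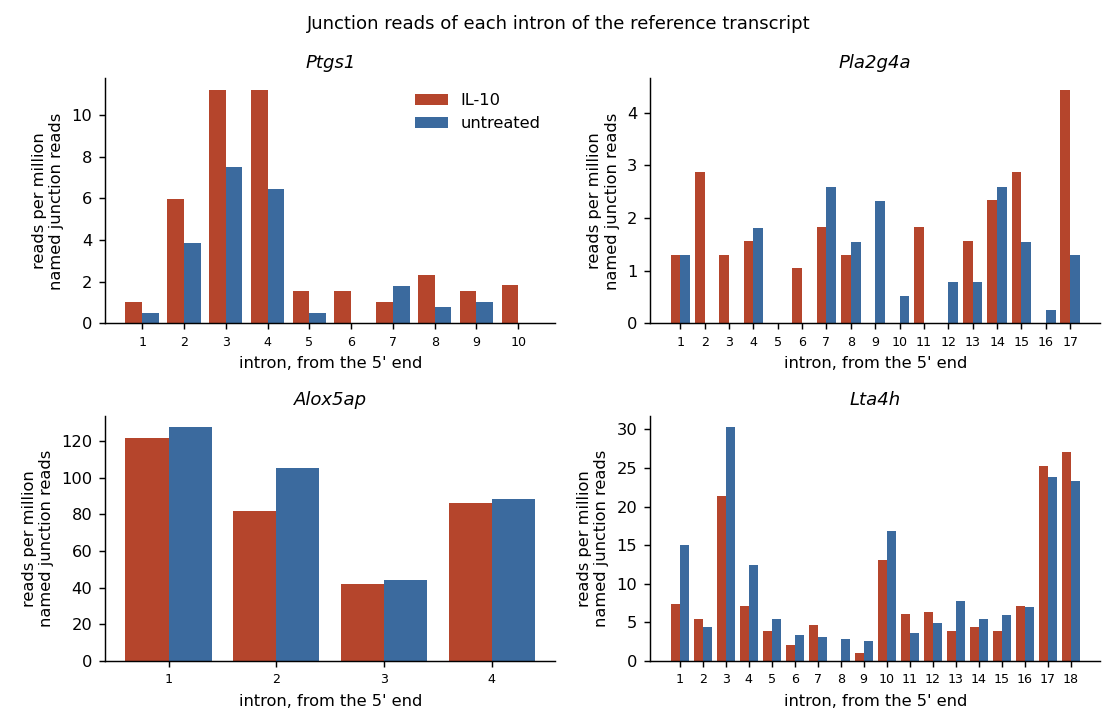
Reads per 1000000 named junction reads on each intron of the reference transcript, numbered from the 5′ end, for Ptgs1, Pla2g4a, Alox5ap and Lta4h, with IL-10 bars left of untreated bars. Ptgs1 reads peak at introns 2 to 4 in both libraries, Pla2g4a introns lie on both sides, and the last 2 introns of Lta4h are the highest in the IL-10 library.

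Ptgs2 encodes cyclooxygenase 2, the form that inflammatory stimuli induce in macrophages. It had 9 reads with IL-10 and 5 untreated, on 5 of the 9 introns of its reference transcript, and was too low to compare (1.81, 0.546 to 6.89). Of those 9 reads with IL-10, 7 lay on its seventh intron. Ptgs2 gave 5.63% of the cyclooxygenase reads in the IL-10 library (9 of 160, Wilson interval 2.99 to 10.3) and 5.43% in the untreated library (5 of 92, 2.34 to 12.1). The share rested on few introns: on the most-read intron of each gene alone it was 14.0% (6.95 to 26.2) with IL-10 and 3.33% (0.591 to 16.7) untreated, and without that intron 1.82% (0.50 to 6.39) and 6.45% (2.54 to 15.4). The intervals of the 2 libraries overlapped in each case, so no difference in this share was detectable at this depth. Cyclooxygenase reads came mainly from Ptgs1 in both libraries.

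Ptges encodes the inducible microsomal synthase that turns prostaglandin H2 into prostaglandin E2. Its reads numbered 29 with IL-10 and 17 untreated, a ratio of 1.72 (0.913 to 3.33). Both introns of its reference transcript were higher with IL-10: the first had 8 reads with IL-10 and 3 untreated, and the second 20 and 14. The interval included 1, and 249 (10.03%) of 2482 genes with 20 to 100 reads had a ratio at least as high. The ratio of Ptgs1 divided by that of Ptges was 1.02 (0.494 to 2.04), an interval too wide to show whether their ratios were alike.

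Alox5 encodes 5-lipoxygenase, the first enzyme of leukotriene synthesis. Only 2 reads with IL-10 and 8 untreated were found, on 7 of 13 introns, with at most 2 reads on any intron in a library. The ratio of 0.252 had an interval of 0.0261 to 1.26, and no difference was detectable at this depth. Its partner Alox5ap encodes the 5-lipoxygenase activating protein, which presents arachidonic acid to the enzyme, and was the most abundant member. Alox5ap had 1274 reads with IL-10 and 1413 untreated, a ratio of 0.908 (0.841 to 0.980). All 4 of its introns were lower with IL-10, from 0.778 (0.669 to 0.903) at the second to 0.978 (0.838 to 1.14) at the fourth. The interval of the gene widened by the spread among introns was 0.817 to 1.01. Of 2205 genes with 500 to 5000 reads, 24.3% had a ratio at least as low. Alox5 gave 0.157% of the reads of the pair in the IL-10 library (2 of 1276, 0.0430 to 0.570) and 0.563% in the untreated library (8 of 1421, 0.286 to 1.11).

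Lta4h encodes leukotriene A4 hydrolase, which makes leukotriene B4, a strong attractant of neutrophils. It had 581 reads with IL-10 and 694 untreated, a ratio of 0.843 (0.754 to 0.943). Of its 19 introns with at least 5 reads, 11 had a ratio below 1 with IL-10 and 8 a ratio above 1, and 2 of these 8 had equal reads in both libraries (27 and 6) before scaling to the library totals. The spread among introns was 2.40, a value reached by 14.4% of genes, and the widened interval was 0.711 to 1.0004. Of 2205 genes with 500 to 5000 reads, 278 (12.6%) had a ratio at least as low.

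The ratio of Lta4h was lower over the first introns of its reference transcript than over the last, but not evenly so. The first 9 of the 18 introns of its reference transcript had 203 reads with IL-10 and 307 untreated (0.666, 0.555 to 0.798), and the last 9 had 372 and 381 (0.984, 0.850 to 1.14). The first intron had 28 reads with IL-10 and 58 untreated (0.486, 0.298 to 0.776), while the last had 104 and 90 (1.16, 0.869 to 1.56). A gap between the first and last introns as wide as this, in either direction, was found in 704 (15.4%) of 4581 genes with at least 20 reads in each part and library. Each part was mixed: among the first 9, introns 2 (1.24) and 7 (1.51) lay above 1. The lowest of the first 9 was intron 8, with 0 reads with IL-10 and 11 untreated (upper limit 0.401). Among the last 9, introns 10, 13, 14 and 15 lay below 1, with the lowest at intron 13 (0.504, 0.252 to 0.966). In the IL-10 library the last 2 introns had 100.5 reads each on average against 23.4 for the 16 before them, and in the untreated library 91.0 against 31.6. The ratio was 1.11 (0.906 to 1.37) over the last 2 introns and 0.745 (0.650 to 0.853) over the 16 before them. This split was examined after the values were seen.

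Lta4h also had the only alternative junction of the 8 genes with more than 1 read in both libraries and an annotated transcript. An exon of 83 bases, exon 17 of the reference transcript at chr10:92944995-92945077 (mm9, plus strand), was either included or skipped as in the noncoding transcript Lta4h-207. Its length is not a multiple of 3, with 2 bases left over, so skipping it changes the reading frame downstream. The sequence of that exon and the junctions that include or skip it were the following, with the downstream exon of each junction in capitals.
Exon 17: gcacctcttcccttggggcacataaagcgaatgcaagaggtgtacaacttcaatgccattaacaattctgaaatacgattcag
Exon 16 to 17: caggtgcttcagaagGCACCTCTTCCCTTG
Exon 17 to 18: tgaaatacgattcagATGGTTACGGCTCTG
Exon 16 to 18: caggtgcttcagaagATGGTTACGGCTCTG

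The junction into exon 17 had 27 reads in each library, the junction out of it 97 with IL-10 and 92 untreated, and the skipping junction 6 in each. At the donor of exon 16 the skipping junction took 18.2% of reads with IL-10 (6 of 33, 8.61 to 34.4) and 17.6% untreated (6 of 34, 8.35 to 33.5). At the acceptor of exon 18 it took 5.83% with IL-10 (6 of 103, 2.70 to 12.1) and 6.12% untreated (6 of 98, 2.84 to 12.7). At either end the share was close in both libraries, with intervals that overlapped almost wholly.

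Ltc4s encodes leukotriene C4 synthase, which joins glutathione to leukotriene A4 to make the first cysteinyl leukotriene. Its reads numbered 34 with IL-10 and 28 untreated, a ratio of 1.22 (0.720 to 2.09). All 4 introns of the reference transcript had reads, between 5 and 11 each with IL-10 and between 3 and 12 untreated, and the first and the fourth had more with IL-10, the second fewer, and the third 9 in each library. Of 2482 genes with 20 to 100 reads, 29.9% had a ratio at least as high, so many genes of this depth lay as far.

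Ratios of members were also set against each other, with exact conditional intervals, over the 15 pairs of the 6 genes with at least 20 reads. In 5 pairs the interval excluded 1. The ratio of Ptgs1 was 1.92 times that of Alox5ap (1.45 to 2.56) and 2.07 times that of Lta4h (1.54 to 2.79). The ratio of Pla2g4a was 1.54 times that of Alox5ap (1.10 to 2.16) and 1.66 times that of Lta4h (1.17 to 2.35), and that of Ptges was 2.04 times that of Lta4h (1.07 to 3.99). Ptges against Alox5ap missed by little, with Alox5ap at 0.529 times Ptges (0.271 to 1.0003). These intervals cover counting error alone and were not widened for the spread among introns. Alox5ap and Lta4h, at 1.08 (0.940 to 1.23), and Pla2g4a and Ptgs1, at 0.800 (0.520 to 1.23), were not separated.

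**Figure D4:**
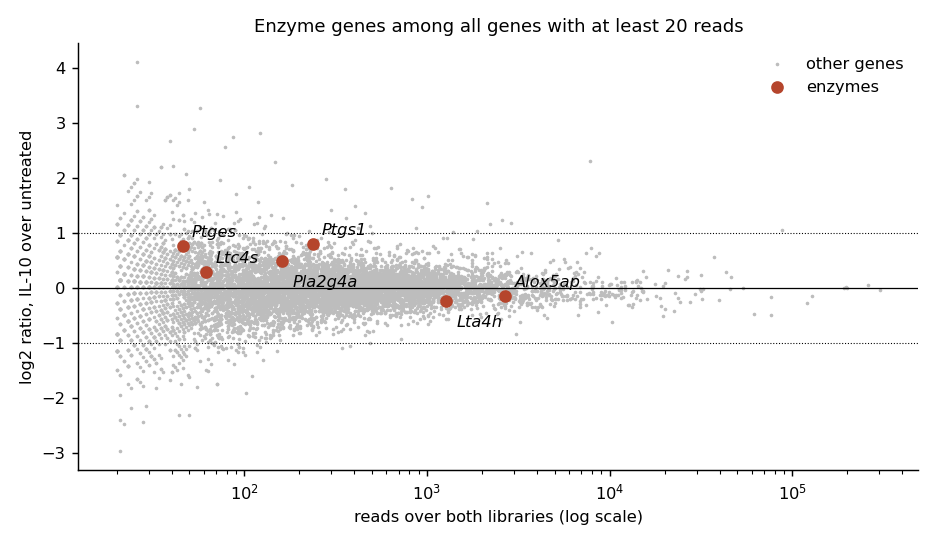
Log2 ratio of IL-10 over untreated against the number of reads over both libraries (log axis) for 8365 genes with at least 20 reads (grey), with the 6 enzyme genes that reached 20 reads in red. Dotted lines mark 2-fold, and all 6 enzyme genes lie between them.

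Around these enzymes, 81 other genes of arachidonate release, prostanoid and leukotriene synthesis, breakdown, transport and reception were listed. Of these, 54 had a value and 47 at least 20 reads. With IL-10, 1 was called higher and 1 lower, against 1.76% and 1.49% of all genes, and the median log2 ratio of the 47 was -0.08. The interval lay above 1 for 4 of the 47 and below 1 for 13, against 12.9% and 13.0% of all genes. The lists were arachidonate release and re-uptake (25 genes), other prostanoid synthases (10), other lipoxygenases and leukotriene enzymes (11), enzymes of breakdown (13), transporters (5) and receptors (17).

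The gene called lower was Cyp4f18, which encodes a cytochrome P450 that inactivates leukotriene B4 by hydroxylation in mouse neutrophils. It had 12 reads with IL-10 and 37 untreated (0.327, 0.155 to 0.641), and 4 of its 5 introns with at least 5 reads were lower. The gene called higher was Gpx4, a lipid hydroperoxidase, with 31 reads with IL-10 and 13 untreated (2.40, 1.22 to 5.002). Its value is uncertain, since it rests on 3 introns, of which 1 had at least 5 reads, and the annotation holds the pseudogenes Gpx4-ps1 and Gpx4-ps2. In the breakdown list, which also holds Cyp4f18, Ptgr1, a prostaglandin reductase that also inactivates leukotriene B4, had 333 reads with IL-10 and 506 untreated (0.663, 0.576 to 0.763). Dpep2, a dipeptidase that turns leukotriene D4 into E4, had 385 and 381 (1.02, 0.881 to 1.18). Adh5, an alcohol dehydrogenase, had 312 and 360 (0.873, 0.748 to 1.02).

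Among the other prostanoid synthases, Tbxas1, thromboxane A synthase, had the most reads, 1046 with IL-10 and 1005 untreated (1.05, 0.961 to 1.14). Hpgds, which makes prostaglandin D2, had 214 and 271 (0.796, 0.662 to 0.955). Ptgis, prostacyclin synthase, had 92 and 99 (0.936, 0.697 to 1.26), and Ptges2, another prostaglandin E synthase, 58 and 62 (0.942, 0.647 to 1.37). In the list of other lipoxygenases and leukotriene enzymes, Cotl1, a coactosin-like protein that binds 5-lipoxygenase, had 1620 and 1975 (0.826, 0.773 to 0.883). Mgst1 had 1154 and 1316 (0.883, 0.816 to 0.957), and Mgst3 217 and 256 (0.854, 0.709 to 1.03), while Ephx1, an epoxide hydrolase, had 42 and 47 (0.900, 0.579 to 1.39). Mgst1 and Mgst3 are microsomal glutathione transferases of the same protein family as Ltc4s, Ptges and Alox5ap.

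In the list of arachidonate release, 20 genes were measured and none was called, with 2 intervals above 1 and 7 below, beside the same 12.9% and 13.0% of all genes. Anxa1, annexin A1, had the most reads, 8842 with IL-10 and 10151 untreated (0.878, 0.853 to 0.903). Pla2g7, the lipase that inactivates platelet-activating factor, had 1652 and 2034 (0.818, 0.766 to 0.874), Daglb, a diacylglycerol lipase, 1172 and 1462 (0.808, 0.747 to 0.873), and Abhd12, a lysophospholipase, 1699 and 1871 (0.915, 0.856 to 0.977). Pla2g15, the lysosomal phospholipase, stood on the other side with 928 and 603 (1.55, 1.40 to 1.72) and was named after its value was seen.

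Of the transporters, Abcc1, which exports leukotriene C4, had 602 reads with IL-10 and 517 untreated (1.17, 1.04 to 1.32), and Abcc4, an exporter of prostaglandins, 144 and 128 (1.13, 0.887 to 1.45). Abcc3 (1.01) and Slco2b1 (1.78, 0.866 to 3.83) had intervals that included 1. Of 17 receptor genes 4 were measured and none was called. Pparg, a nuclear receptor for lipid ligands, had 210 and 321 (0.659, 0.551 to 0.787). Ptger4, a prostaglandin E2 receptor, had 29 and 24 (1.22, 0.684 to 2.18), Cysltr1, a receptor for cysteinyl leukotrienes, 22 and 15 (1.48, 0.733 to 3.06), and Fpr2, a receptor for lipoxin A4 and formyl peptides, 26 and 15 (1.75, 0.891 to 3.55). Many receptor genes have 1 or few introns, and 11 of the 17 had no value.

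**Figure D5:**
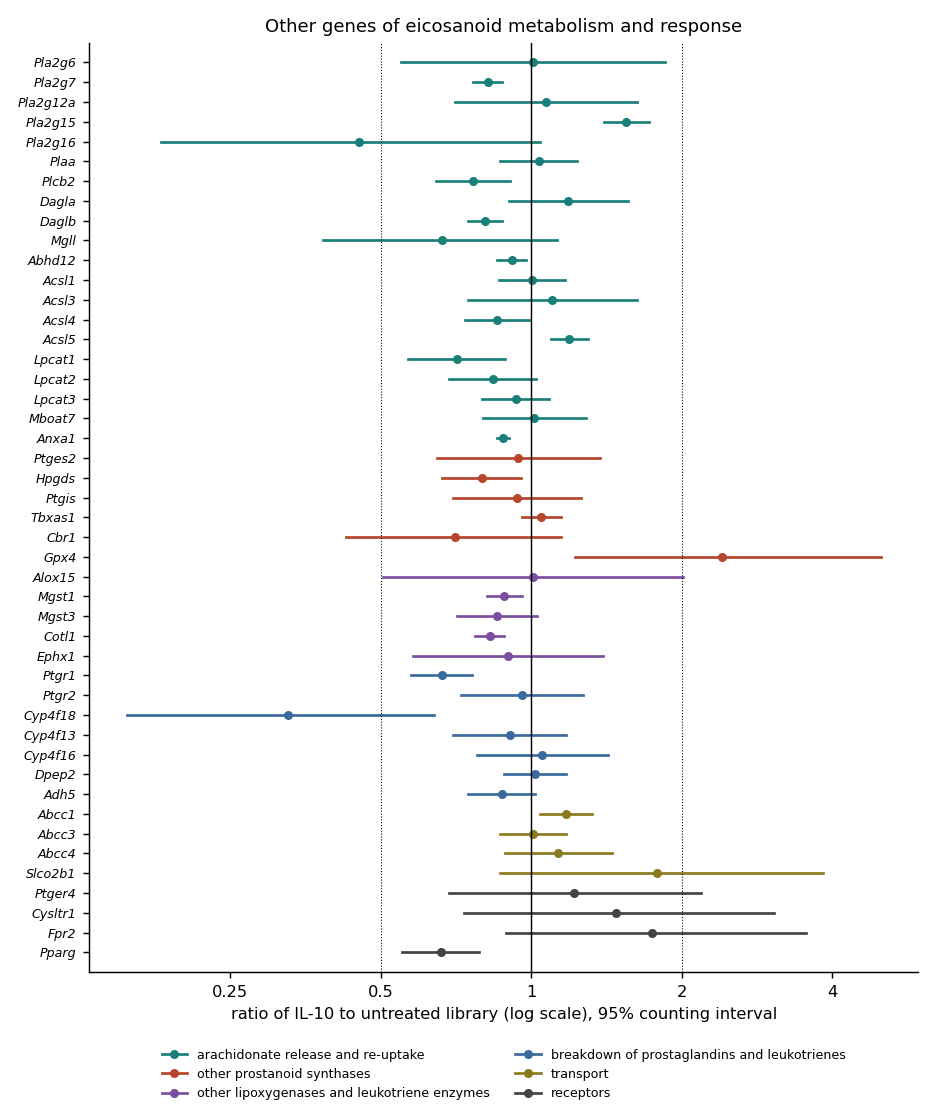
Ratio of the IL-10 to the untreated library (log axis) with 95% counting intervals for other genes of eicosanoid metabolism and response with at least 20 reads, coloured by role. Cyp4f18 (0.327) and Pla2g16 (0.453, with an interval that includes 1) lie below the dotted line at 0.5, Gpx4 (2.40) lies above the dotted line at 2, and the other genes shown lie between.

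The IL-10 library held 3998954 junction reads and the untreated library 4035991. Of 11 genes of the IL-10 response, 9 were measured and 5 were called higher, against 1.76% of all genes: Stat3 (2.22), the factor through which the IL-10 receptor signals, Bcl3 (2.58), Il4ra (2.77), Sbno2 (2.34) and Arg1 (3.48). The other 4 were Il10rb (1.10), Il1rn (1.04), Il10ra (0.979) and Tnip3 (0.892). This list was chosen with earlier results of these data known, so the count is not an independent check of the response. The macrophage markers, 10 of 11 measured and none called, summed to 62105 reads with IL-10 and 78372 untreated, of which Lyz2 alone gave 31849 and 45047. Their intervals lay above 1 for 4 genes and below 1 for 4, against 12.9% and 13.0% of all genes. Their median log2 ratio was 0.03. Markers of other cells were scarcer: the 10 markers of mast cells, which are rich in Ltc4s and Alox5, summed to 38 reads with IL-10 and 32 untreated, 3 having no value and Kit having 3 reads in each library. Of 7 eosinophil markers Siglecf alone had a value (86 and 48 reads, 1.81). The 14 neutrophil markers summed to 951 and 882, the 7 markers of platelets, which are rich in Ptgs1, to 514 and 607 (0.853), and the 11 fibroblast and mesothelial markers, cells that can express Ptgs1 and Ptges, to 1401 and 1248 (ratio 1.13). Of 6 of these with at least 20 reads, 3 had an interval above 1 and 1 below, against 12.9% and 13.0% of all genes. Above 1 were Col1a2 (1.23, 1.08 to 1.40), Col3a1 (1.38, 1.11 to 1.72) and Col6a1 (1.58, 1.19 to 2.12). Dcn (0.756, 0.576 to 0.988) lay below 1. Of the mesothelial markers, each below 20 reads, Krt19 had 0 reads with IL-10 and 7 untreated. Msln (4 and 0), Wt1 (11 and 7) and Upk3b (5 and 4) had more with IL-10. These genes were named after their values were seen. Of 7 dendritic cell markers 5 had no value, and nearly all reads of the other 2 were of Itgax, which macrophages express too (7270 and 6711). B cell markers to 489 and 545, and T and NK cell markers to 6 and 1. Among 9 markers of resident peritoneal macrophages, which are rich in Ptgs1, the sums were 281 and 259 (1.09), of which Prg4 gave 140 and 124. Of 7 with at least 20 reads, Selp alone was called higher (29 reads against 6), beside 1.76% of all genes. Timd4, F5 and Prg4 also had more reads with IL-10. Ltbp1 (28 and 45), Gata6 (18 and 22) and Icam2 (3 and 11) had fewer, and Alox15 and Garnl3 had equal reads. The part of these cells in the values of Ptgs1, Ptges and Ltc4s was not tested.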

How the data were processed

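The deposited values are read counts per splice junction, per the file headers a TopHat junction list for each library. Per the submitters' processing notes, TopHat and Cufflinks were used on the mm9 build. Their versions and read filters are not given in the sources used here. Per the labels, the insert size was 188 bp for IL-10 and 197 bp for untreated.

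Introns came from GENCODE M21, which is on GRCm38. A junction was matched to an intron of equal chromosome, strand and length where at least 2 introns of the gene shared 1 offset of at most 20 Mb, and 106347 of 131057 junctions (81.1%) matched. Coordinates are those of the deposited mm9 lists. Genes with fewer than 2 matched introns, and introns of several genes, were left out.

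Ratios carry exact conditional binomial (Clopper-Pearson) 95% intervals and shares Wilson intervals. Reads without molecular identifiers are not independent molecules. Log2 ratios used a pseudocount of 0.5 reads. The reference transcript has the most matched reads. Intervals and calls were tested on simulated counts with counting error alone, and the matching on simulated introns. Such counts do not show how the intervals behave under a wider spread, as among the introns of Pla2g4a. Alternatives covered the library total, introns summed, minimum of reads, interval and fold, with edgeR and DESeq2 used for scaling alone. Members and lists were chosen with earlier results of these data known. Named were all members, the called genes of each list and up to 4 with the most reads, but IL-10 response genes and markers that were not called only where they bear on a member. The value of 1 other pathway gene is not reported here, though the counts over its list include it. The tools were edgeR 4.0.16 and DESeq2 1.42.0 under R 4.3.3, and scipy 1.17.1, numpy 2.4.6, pandas 2.3.3 and matplotlib 3.10.9 under Python 3.11.15.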

Additional observations from a re-analysis of the deposited data

Results flagged for a closer look

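Reads also crossed junctions inside the 8 genes that match no annotated intron, which the gene values leave out. Over all 8 genes there were 16 such junctions with 22 reads (IL-10) and 23 reads (untreated), and 7 of them, with 17 and 17 reads, lay in Alox5ap. In Alox5ap 3 junctions passed, in a library, the 3 reads that a count of 0 allows. The junction from 150076759 to 150080313 on chromosome 5 (mm9) had 4 reads with IL-10 and 2 untreated, and the junction from 150080401 to 150083956 had 6 with IL-10 and 4 untreated. This pair shares its outer ends with the first annotated intron of Alox5ap and encloses 87 bases. Beside it, the annotated intron had 467 and 493 reads, so the enclosing junctions took 0.847% (IL-10) and 0.402% (untreated) of the reads at the donor and 1.27% and 0.805% at the acceptor, with overlapping intervals. The junction from 150076349 to 150076634 had 5 reads with IL-10 and 1 untreated.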

How the results depend on the processing

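No enzyme was called lower under any of the 14 alternatives tried. With 1 library per group, leaving out a replicate was not possible, and no paired analysis was possible because the labels give no replicate numbers. Ptgs1 passed at 1.5-fold, which made 1 enzyme called higher. On its most-read intron alone 1 enzyme, Pla2g4a (3.43, 1.21 to 11.9), was called higher. Of 102 alternative ratios of the 6 enzymes with 20 reads, 98 kept their side of 1 and of the threshold, 3 newly passed the threshold (the third was Ptgs1 on the last 5 introns of its reference transcript, 2.30) and 1 turned, Ltc4s on its most-read intron (0.923). Many could not turn, since the minimum of reads, the interval, its widening and the fold do not enter the ratio. Adding shared introns or asking for longer aligned ends left these ratios unchanged. An interval that came to include 1 still counted as kept. Examples are Pla2g4a with the 99% interval (0.917 to 2.15) and without its most-read intron (0.871 to 1.76). Ptgs1 ranged from 1.49 to 2.30 and Lta4h from 0.666 to 0.984. Without its most-read intron Ptgs2 turned to 0.504, on 6 reads. The share of cyclooxygenase reads from Ptgs2 in the IL-10 library moved to 14.0% on the most-read introns alone (untreated 3.33%) and to 1.82% without them (untreated 6.45%). Over all genes, 358 were called higher and 336 lower at 1.5-fold, 53 and 29 at 3-fold, and 37 and 10 with a minimum of 100 reads. With no minimum 203 were called higher and 190 lower, and with a 99% interval 107 and 77. Below about 20 reads, as for Ptgs2 and Alox5, depth allowed no comparison. The interval widened by the spread among introns and the split into first and last introns were chosen after seeing the data. The causes were not tested.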
